A study of Mus musculus with 31 samples.

Results

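The walls of small blood vessels hold mural cells of 2 kinds, pericytes on capillaries and contractile smooth muscle cells on arterioles. The 9 genes described here mark these cells in the brain: Acta2, Tagln and Myh11 for smooth muscle, and Pdgfrb, Rgs5, Abcc9, Kcnj8, Anpep and Vtn for pericytes. They were taken by name from 21 RNA-seq tables, and all 9 are listed in each, out of 24062 genes for the sorted cells and 24322 for the cultured cells. The choice used no measured value, although earlier results of these data were known when it was made.

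The sorted cells were EGFP-positive cells from the dentate gyrus of C57BL/6 Nestin-EGFP mice, a reporter line in which Nestin regulatory sequence drives EGFP. The midazolam groups (MDZ) received 10 mg/kg of this benzodiazepine sedative into the abdomen on postnatal days 7, 8 and 9, and the controls received water. Cells were sorted on postnatal day 10 (MDZ P10 and Control P10, 50000 cells of 1 mouse per library) or at 8 weeks, when a library pooled about 30000 cells from 3 to 5 mice. The 8-week groups were exposed mice housed with a running wheel (RUN MDZ 8w), exposed mice without one (MDZ 8w) and controls (Control 8w). The samples held no running mice without midazolam, so an effect of running itself cannot be told apart from one particular to exposed mice. The cultured cells were neural stem cells of ICR mice, taken from the cortex of day 11 embryos and kept through over 20 passages. They were infected with lentiviruses for M2rtTA and Flag-tagged Egr1 (Egr1 culture) or for M2rtTA alone (Control culture). Each group had 3 libraries, and whether the cultured replicates were grown separately is not labelled, so p-values there may measure technical spread.

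Endothelial cells recruit mural cells by secreting the growth factor PDGF-B, which acts on the receptor encoded by Pdgfrb, and pericytes without that receptor signal fail to cover brain capillaries. Smooth muscle cells contract through actin and myosin filaments whose genes are switched on by serum response factor (SRF) with myocardin-type cofactors, at promoter elements called CArG boxes. Nestin is best known as a filament protein of neural stem cells and is also made by some vascular cells.

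In GRCm38.p6, the RefSeq version of mm10, Acta2 (smooth muscle alpha-actin) lies on chromosome 19 from 34240336 to 34255585. Tagln, which encodes transgelin (SM22), an actin-binding protein, lies on chromosome 9 from 45929628 to 45936058. Myh11, the smooth muscle myosin heavy chain, lies on chromosome 16 from 14194527 to 14292188. Rgs5, which encodes a protein that shortens G protein signals, lies on chromosome 1 from 169655501 to 169695813. Abcc9 and Kcnj8 are neighbours on chromosome 6, at 142587862 to 142702766 and 142564837 to 142571614, with 16247 bases between them. They encode the SUR2 and Kir6.1 subunits of the ATP-sensitive potassium channel of vascular muscle and pericytes. Anpep (aminopeptidase N, CD13) lies on chromosome 7 from 79821803 to 79848210, and Vtn (vitronectin, a secreted matrix protein that binds integrins) on chromosome 11 from 78499120 to 78502325. Tagln overlaps Pcsk7, Abcc9 overlaps the long non-coding RNA 5330439B14Rik, and Acta2 ends 2 bases from Stambpl1. The strand setting of the authors' counting is not given in the sources used here, so reads at these places may have been assigned to either gene.

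The promoters of Acta2 and Anpep are shown because these members were higher in every library of cultured cells with Egr1. RefSeq promoter sequences were matched for 6 members (Acta2, Rgs5, Abcc9, Kcnj8, Anpep and Vtn) and searched on both strands over 300 bases, starting 250 before the start site. None of the 6 held a strict CArG box, which 1.63% of all 32851 promoters of this length held. Acta2 held a pair of CArG boxes with 1 base of the A and T core replaced, a pattern searched after the sequence was seen and found in 8.5% of promoters. Each is printed 5′ to 3′ on the minus strand with 10 bases on either side and the box in capitals. The first lies at chr19:34255438-34255467, with the box starting 84 bases before the start site, and the second at chr19:34255388-34255417, with the box starting 34 bases before it. The start site is that of the promoter table, which lies inside the gene span given above, so both boxes lie inside that span too.
Acta2 upstream box: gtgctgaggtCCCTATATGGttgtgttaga
Acta2 downstream box: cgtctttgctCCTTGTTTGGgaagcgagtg
The letters TGGGAA, a core recognised by the Notch effector RBPJ, start 27 bases before the Acta2 start and overlap the downstream box. Kcnj8, Abcc9 and Vtn hold these letters as well, as do 25.6% of promoters.

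Anpep was the only one of the 6 with the Egr1 recognition letters GCGNGGGCG, which 5.55% of promoters hold. Its 250 bases before the start are those of chr7:79848211-79848460 on the minus strand, printed 5′ to 3′ with the match, starting 72 bases before the start, in capitals.
Anpep promoter: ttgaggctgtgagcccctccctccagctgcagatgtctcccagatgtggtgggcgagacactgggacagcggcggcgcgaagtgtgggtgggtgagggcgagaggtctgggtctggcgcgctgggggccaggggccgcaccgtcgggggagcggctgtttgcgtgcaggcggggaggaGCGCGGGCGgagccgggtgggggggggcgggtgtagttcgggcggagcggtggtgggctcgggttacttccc
A match of letters describes the sequence and does not show that a factor binds there.

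Several facts of the libraries bear on the values. Deposited values are FPKM at P10 and TPM at 8 weeks and in culture (reads scaled for gene length and library), so genes can be ranked within a library but P10 levels were not set against 8-week levels. Control 8w replicates 2 and 3 were nearly the same library (Spearman correlation 0.9919, with 97.43% of genes above 0 shared), lay closer together than all other 8-week replicate pairs and entered the fit as 1 averaged sample, which leaves Control 8w with n = 2. Control 8w replicate 1 stood apart from them (correlations of 0.8288 and 0.8285). Control 8w libraries had 11163 to 11397 genes above 0, against 15568 to 15906 in RUN MDZ 8w and 15382 to 16709 in MDZ 8w. Of 7534 genes at 20 TPM or more in all 6 exposed 8-week libraries, 31 (0.411%) were listed at 0 in all 3 Control 8w libraries. No member was among these 31. A member listed at 0 in single Control 8w libraries may still be a failed estimate, which was not tested. Where a fit without Control 8w replicate 1 is given, the control arm is 1 averaged sample of replicates 2 and 3, taken to vary like the exposed groups, which alone supply the spread. Its adjusted p-values show what replicate 1 does to the fit and give no separate support to a call. Neural stem cell markers, the labelled identity, were detected in every sorted group, summing over 10 genes to 2139.6 to 2565 TPM in RUN MDZ 8w, 2397 to 3848 TPM in MDZ 8w and 1476 to 1678 TPM in Control 8w.

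At P10, all 9 members had lower means after midazolam, none passed the test, and the differences were small. Tagln, Rgs5, Anpep and Vtn were lower in every MDZ P10 library than in every Control P10 library. Tests used limma on log2(value + 1) with Benjamini-Hochberg adjustment over all 12914 genes tested and a threshold of 0.05. At that threshold 0.00774% of genes were called, 1 gene in all and no member, while 6 members and 3.65% of genes were lower at an unadjusted p under 0.05. Groups did not overlap, with MDZ P10 lower, for 6.61% of genes and for 4 of the 9 members.

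Rgs5 was the most abundant member at P10, with 76.9, 63.3 and 68.4 FPKM in MDZ P10 against 87.8, 82.4 and 105 FPKM in Control P10. Every exposed library lay below every control. Its log2 fold change was −0.39 ± 0.10 (SE, limma adjusted p = 0.251). Vtn had 45.6, 37.8 and 47.7 FPKM in MDZ P10 against 53.8, 56.0 and 64.7 FPKM in Control P10, again without overlap (log2 fold change −0.41 ± 0.10, adjusted p = 0.244). Among the contractile genes, Tagln had 7.68, 6.63 and 9.48 FPKM in MDZ P10 against 11.5, 10.3 and 11.6 FPKM in Control P10, the widest difference of the 9 (log2 fold change −0.45 ± 0.11, adjusted p = 0.24). Anpep was low throughout, at 2.53 to 2.82 FPKM in MDZ P10 against 2.92 to 3.695 FPKM in Control P10.

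The other 5 members overlapped between the P10 groups. Pdgfrb, on chromosome 18 from 61045127 to 61085067, had 22.2, 22.2 and 24.18 FPKM in MDZ P10 against 29.1, 24.16 and 30.01 FPKM in Control P10, and Control P10 replicate 2 fell just below the highest exposed library. Without that library Pdgfrb passed the test (log2 fold change −0.36, adjusted p = 0.0463), and the count of genes called went to 101, so the P10 result for Pdgfrb depended on 1 mouse. Acta2 averaged 11.6 ± 2.09 FPKM in MDZ P10 against 13.8 ± 0.77 FPKM in Control P10, and Myh11 1.87 ± 0.48 and 2.08 ± 0.10 FPKM (SD, n = 3 each). The channel genes lay close together, with Kcnj8 at 5.76 to 6.80 FPKM in MDZ P10 against 6.74 to 7.52 FPKM in Control P10, and Abcc9 at 3.94 to 4.90 FPKM and 4.72 to 6.06 FPKM.

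Over the 9 members the median log2 fold change at P10 was −0.25, against 0.01 for all genes, and 44.1% of all genes were negative. Of 20 other pericyte markers tested, 0 passed, 16 were negative and the median was −0.17. Cspg4 (NG2, shared with oligodendrocyte precursors) ran the other way, with 43.2, 55.7 and 41.5 FPKM in MDZ P10 against 28.2, 47.9 and 27.3 FPKM in Control P10 (log2 fold change 0.46, adjusted p = 0.418). Of 13 other contractile genes 0 passed (median −0.10), and of 9 fibroblast markers 0 passed (median −0.52). Endothelial markers summed over 17 genes to 286 to 323 FPKM in MDZ P10 against 274 to 314 FPKM in Control P10, which overlap. Within these sums Slco1c1 alone had 140 to 162 FPKM in MDZ P10 and 122 to 139 FPKM in Control P10. Of the 17 genes 8 were positive, 9 were negative and 0 passed, with a median of −0.05.

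**Figure D1:**
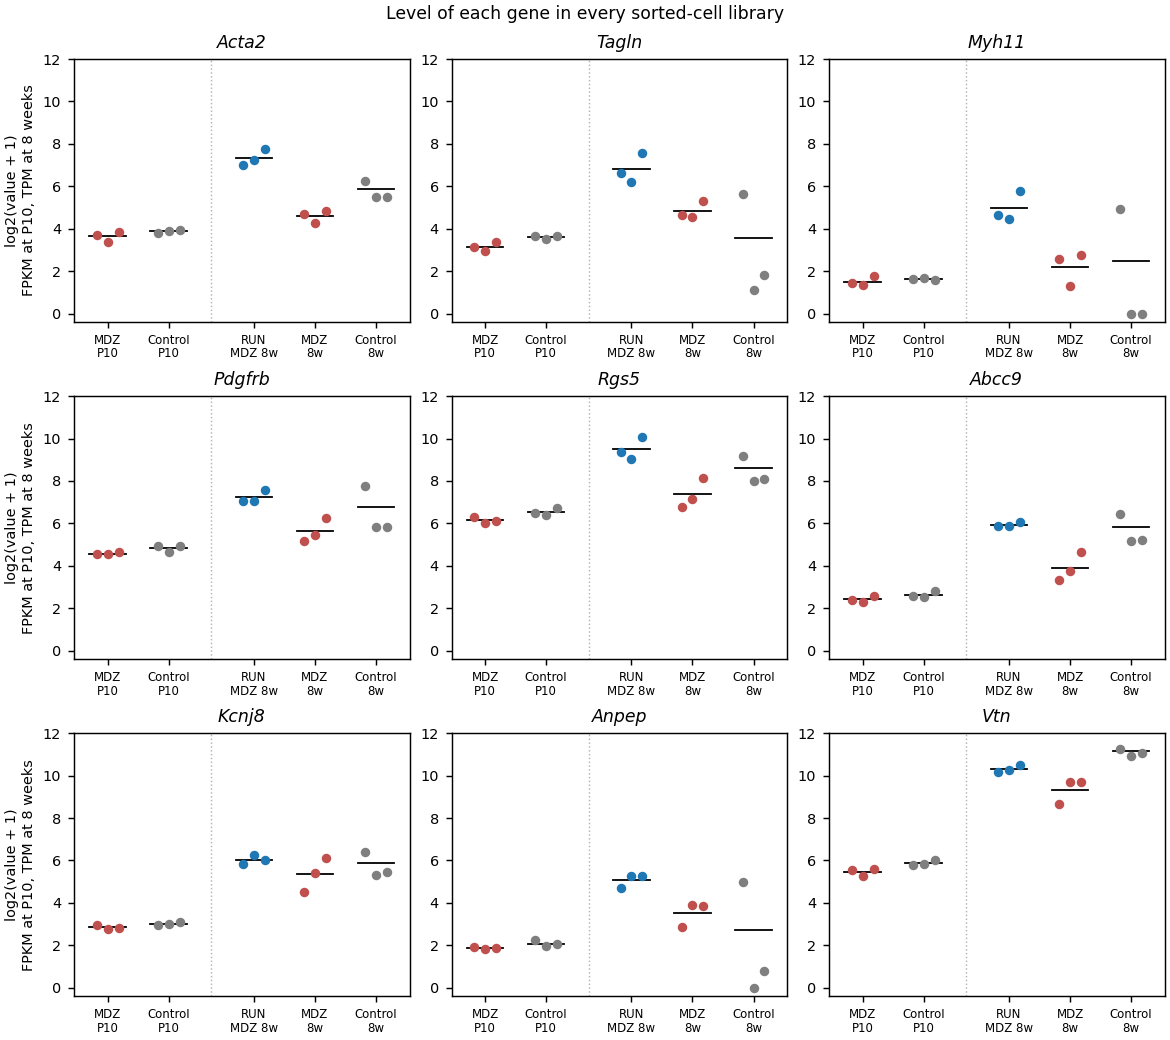
Level of each of the 9 genes in every sorted-cell library, as log2(value + 1), with FPKM left of the dotted line (MDZ P10, Control P10) and TPM right of it (RUN MDZ 8w, MDZ 8w, Control 8w). Points are libraries 1 to 3 and bars are means, where replicates 2 and 3 of Control 8w enter as their average. The P10 groups lie close together, RUN MDZ 8w lies above MDZ 8w in all panels except Kcnj8, where they overlap, and Control 8w spans a wide range for Tagln, Myh11 and Anpep.

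At 8 weeks without running, Vtn fell in exposed cells to 0.301 times its Control 8w mean and was the only member that passed the test. Acta2 and Abcc9 were also lower in every MDZ 8w library than in every Control 8w library without passing. Tagln and Anpep, both near 0 TPM in Control 8w replicates 2 and 3, had positive log2 fold changes, although the mean TPM of Anpep was lower in MDZ 8w (ratio of means 0.718). In this comparison 5.13% of 15264 genes were called (0.452% as lower), and groups did not overlap with MDZ 8w lower for 11.3% of genes. The count for the members was 1 of 9 called and 3 of 9 lower without overlap.

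Vtn had 398, 820.04 and 823 TPM in MDZ 8w and 2480.2, 1939 and 2152 TPM in Control 8w. The highest exposed library was far below the lowest control library. The log2 fold change was −1.80 ± 0.32 (SE, limma adjusted p = 0.019). The adjusted p stayed between 0.0167 and 0.0462 with each 8-week library left out in turn. Without Control 8w replicate 1, which leaves 1 averaged control sample, it was 0.0218 (log2 fold change −1.66). It was lost when RUN MDZ 8w was left out of the fit (adjusted p = 0.0622) and under quantile normalization (0.0611) and library quality weights (0.655).

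Of the contractile genes, Acta2 had 24.7, 18.5 and 27.1 TPM in MDZ 8w and 76.4, 43.9 and 44.6 TPM in Control 8w (log2 fold change −1.29 ± 0.35, adjusted p = 0.0764). Tagln had 24.4, 22.6 and 38.6 TPM in MDZ 8w, whereas Control 8w replicate 1 had 48.1 TPM and replicates 2 and 3 had 1.17 and 2.48 TPM. The control libraries thus lay on both sides of the exposed ones, and the log2 fold change of 1.29 ± 1.05 did not pass (adjusted p = 0.493). Myh11 had 5.03, 1.43 and 5.71 TPM in MDZ 8w; it had 29.1 TPM in Control 8w replicate 1 and was listed at 0 in replicates 2 and 3. Without Control 8w replicate 1, against the 1 averaged control sample, the log2 fold change of Tagln was 3.35. That of Myh11 turned from −0.25 to 2.21, and that of Acta2 was −0.90.

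The pericyte genes other than Vtn had wide control ranges as well. Pdgfrb had 34.8, 42.1 and 75.9 TPM in MDZ 8w and 214, 56.5 and 55.1 TPM in Control 8w. Rgs5 had 108, 143 and 284 TPM in MDZ 8w and 579, 255 and 274 TPM in Control 8w. In both genes MDZ 8w replicate 3 exceeded the lower control libraries, so the groups overlapped (log2 fold changes −1.17 and −1.25, adjusted p = 0.26 and 0.187).

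The channel genes differed from each other at 8 weeks. Abcc9 had 8.91, 12.4 and 24.4 TPM in MDZ 8w and 86.6, 35.2 and 35.7 TPM in Control 8w, without overlap (log2 fold change −1.92 ± 0.51, adjusted p = 0.0741). Its partner Kcnj8 had 22.0, 41.9 and 67.5 TPM in MDZ 8w and 83.9, 38.9 and 42.4 TPM in Control 8w, with partial overlap (−0.54 ± 0.49, adjusted p = 0.538). The ratio of Kcnj8 to Abcc9 was 2.47, 3.395 and 2.77 in MDZ 8w and 0.968, 1.10 and 1.19 in Control 8w, and this difference was not tested. Anpep had 6.31, 13.7 and 13.4 TPM in MDZ 8w, and in Control 8w had 30.7 TPM in replicate 1, was listed at 0 in replicate 2 and had 0.71 TPM in replicate 3. Without Control 8w replicate 1 its log2 fold change moved from 0.82 to 3.10, against 1 averaged control sample at or near 0.

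In the other genes of the same cells, 3 of 22 further pericyte markers fell and 0 rose. Art3, a cell-surface ADP-ribosyltransferase family member, had 18.7, 38.4 and 37.7 TPM in MDZ 8w and 178, 159 and 145 TPM in Control 8w (log2 fold change −2.41, adjusted p = 0.0188). Sod3 (extracellular superoxide dismutase) also fell, with a log2 fold change of −2.18 (adjusted p = 0.042). The 22 markers had a median of −1.04 and the 9 members −1.17, while the median of all genes was 0.36. Of 19 other contractile genes 2 fell, Casq2 (−2.61) and Crip1 (−1.63), while Mustn1 and Map3k7cl were called higher from values listed at 0 in all 3 Control 8w libraries. Abcc8, the SUR1 subunit that can replace the product of Abcc9, had 24.3, 20.6 and 31.6 TPM in MDZ 8w and 110, 65.4 and 72.1 TPM in Control 8w, and fell (−1.76, adjusted p = 0.0396).

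Endothelial markers, the vessel cells that mural cells cover, summed over 17 genes to 745 to 1107 TPM in MDZ 8w and 1044 to 1195 TPM in Control 8w, with none at 0 in every library. Of these, Cdh5 (VE-cadherin) fell and Tie1 rose, the second from values listed at or near 0 in Control 8w. Neuroblast markers summed over 8 genes to 3717 to 5291 TPM in MDZ 8w and 6666 to 6813 TPM in Control 8w, and 2 of the 8 fell. Astrocyte markers summed over 8 genes to 2970.3 to 3328 TPM in MDZ 8w and 1684 to 2056 TPM in Control 8w, with 8 of 8 positive and 2 risen. Neural stem cell markers were positive in 10 of 10 with 2 risen, and microglia markers in 10 of 10 with 0 passing. In bulk libraries such as these, fewer mural cells among the sorted cells and less RNA of these genes per cell cannot be told apart, and the part of cell makeup in these results was not tested.

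With a running wheel, all 9 members had higher means than in exposed cells without one, and 8 of the 9 were higher in every RUN MDZ 8w library than in every MDZ 8w library. Acta2 was the only member that passed the test, at 7.02 times the MDZ 8w mean. Ratios of means for the rest ran from 1.49 for Kcnj8 and 1.86 for Vtn to 8.13 for Myh11. In this comparison 0.157% of genes were called (0.0524% as higher), and groups did not overlap with RUN MDZ 8w higher for 14.4% of genes.

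Acta2 had 129, 149 and 216 TPM in RUN MDZ 8w against 24.7, 18.5 and 27.1 TPM in MDZ 8w. The lowest running library was well above the highest library without running. The log2 fold change was 2.74 ± 0.31 (SE, limma adjusted p = 0.0267). Leaving out any 1 of the 6 RUN MDZ 8w and MDZ 8w libraries ended the call, with adjusted p between 0.0653 and 0.128 and fold changes from 2.53 to 2.90, and the adjusted p was 0.00416 without Control 8w replicate 1.

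The other contractile genes followed the same order with larger SEs. These SEs come from the fit shared by the 3 groups, so they also hold the spread of Control 8w. Tagln had 98.1, 71.6 and 189 TPM in RUN MDZ 8w against 24.4, 22.6 and 38.6 TPM in MDZ 8w, with a log2 fold change of 1.95 ± 0.94 (adjusted p = 0.556). Myh11 had 24.3, 20.6 and 54.0 TPM in RUN MDZ 8w against 5.03, 1.43 and 5.71 TPM in MDZ 8w, with a log2 fold change of 2.75 ± 1.17 (adjusted p = 0.493). RUN MDZ 8w replicate 3 was the highest of the 9 libraries at 8 weeks for all 3 contractile members and for Rgs5.

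Among the pericyte genes, Rgs5 had 664, 532 and 1069.5 TPM in RUN MDZ 8w against 108, 143 and 284 TPM in MDZ 8w (log2 fold change 2.14 ± 0.44, adjusted p = 0.141). Pdgfrb had 131, 133 and 187 TPM in RUN MDZ 8w against 34.8, 42.1 and 75.9 TPM in MDZ 8w (1.60 ± 0.50, adjusted p = 0.309). Vtn had 1133, 1233 and 1436 TPM in RUN MDZ 8w against 398, 820.04 and 823 TPM in MDZ 8w (0.97 ± 0.29, adjusted p = 0.278). None of these overlapped and none passed the test.

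Abcc9 had 57.2, 57.2 and 66.3 TPM in RUN MDZ 8w against 8.91, 12.4 and 24.4 TPM in MDZ 8w (log2 fold change 2.03 ± 0.45, adjusted p = 0.161). Kcnj8 had 56.7, 75.9 and 63.0 TPM in RUN MDZ 8w against 22.0, 41.9 and 67.5 TPM in MDZ 8w, and MDZ 8w replicate 3 lay among the running libraries (0.69 ± 0.44, adjusted p = 0.732). The ratio of Kcnj8 to Abcc9 was 0.991, 1.33 and 0.950 in RUN MDZ 8w, all below the 2.47 to 3.395 in MDZ 8w. Anpep had 24.8, 37.2 and 37.0 TPM in RUN MDZ 8w against 6.31, 13.7 and 13.4 TPM in MDZ 8w (1.53 ± 1.04, adjusted p = 0.755).

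The adjusted p-values here changed with the libraries in the fit, and the cause was not tested. With only RUN MDZ 8w and MDZ 8w in the fit, 6 members passed (Acta2, Tagln, Myh11, Pdgfrb, Rgs5 and Abcc9, adjusted p from 0.00241 to 0.0387) and 360 genes in place of 24. Without Control 8w replicate 1, 5 members passed (Acta2, Tagln, Pdgfrb, Rgs5 and Abcc9) and 275 genes. Kcnj8, Anpep and Vtn passed in neither.

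**Figure D2:**
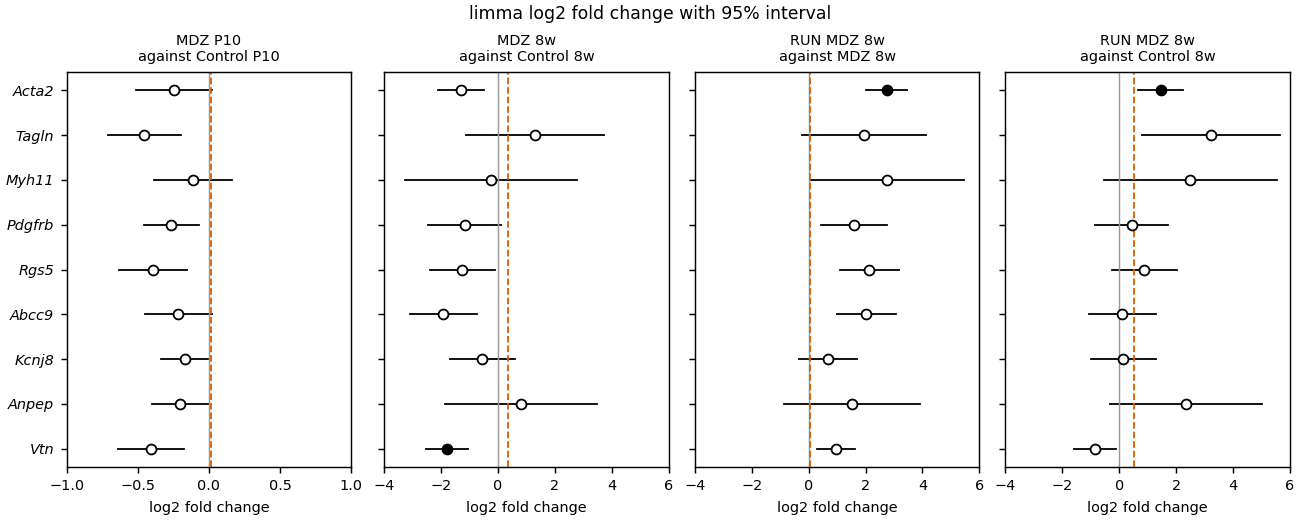
log2 fold change of each member (x axis, limma on log2(value + 1)) with its 95% interval, in the 4 comparisons of sorted cells. Filled circles passed an adjusted p of 0.05, the grey line is 0 and the dashed line is the median of all genes tested (0.01, 0.36, 0.05 and 0.51 from left to right). The filled circles are Vtn in MDZ 8w against Control 8w and Acta2 in both RUN MDZ 8w comparisons, and the P10 axis is narrower than the others.

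The median log2 fold change of the members with running was 1.95, beside 0.05 for all genes, and 54% of all genes were positive. Of 22 other pericyte markers 0 passed, 21 were positive, and the median was 0.98. The most abundant of them, Cspg4 and Higd1b, overlapped between the groups (log2 fold changes 0.53 and 0.45). Of 19 other contractile genes 0 passed, 17 were positive, and the median was 0.89. Myl9, a myosin light chain, had 244, 311 and 319 TPM in RUN MDZ 8w against 118, 165 and 154 TPM in MDZ 8w, which did not overlap (1.00, adjusted p = 0.351). Of 7 genes of the SRF and myocardin family 0 passed, and of 15 genes for mural cell recruitment 0 passed. Of these 15 genes 13 were positive and 2 negative, with a median of 1.06. The most abundant, S1pr1 and Eng, had log2 fold changes of 0.57 and 1.65 (limma adjusted p = 0.312 and 0.203). Pdgfb, the ligand of the Pdgfrb product, was added after its values were seen. It had 44.1, 33.9 and 40.6 TPM in RUN MDZ 8w against 8.64, 10.5 and 11.4 TPM in MDZ 8w.

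Markers of other cell types also differed between these groups, and genes passed the test in the endothelial list alone among the endothelial, oligodendrocyte, fibroblast and microglia lists. All 17 endothelial markers were positive in RUN MDZ 8w against MDZ 8w, 16 did not overlap, and 5 rose (Ptprb, Cdh5, Flt1, Abcb1a and Cldn5). Cdh5 had 50.8, 52.6 and 54.2 TPM in RUN MDZ 8w against 10.8, 11.4 and 8.41 TPM in MDZ 8w (log2 fold change 2.27, adjusted p = 0.0367), and the endothelial sum was 1972 to 2787 TPM against 745 to 1107 TPM. Mature oligodendrocyte markers summed over 8 genes to 2613 to 3931 TPM in RUN MDZ 8w and 196 to 979 TPM in MDZ 8w, with 8 of 8 positive and 0 passing. Fibroblast markers summed over 10 genes to 503.6 to 1365 TPM in RUN MDZ 8w and 229 to 734 TPM in MDZ 8w, which overlap. Of these markers 10 of 10 were positive and 0 passed. A large part of the sums was Pdgfra, like Cspg4 shared with oligodendrocyte precursors. It had 253 to 1110 TPM in RUN MDZ 8w and 128 to 640 TPM in MDZ 8w. Microglia markers ran lower, with 10 of 10 negative and 0 passing, at sums of 92.0 to 212 TPM and 135 to 327 TPM. No list had a gene at 0 in every library of either group except the contractile list, in which Actg2 and Cnn1 were at 0 in RUN MDZ 8w. The part of these cells in the members' values was not tested.

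**Figure D3:**
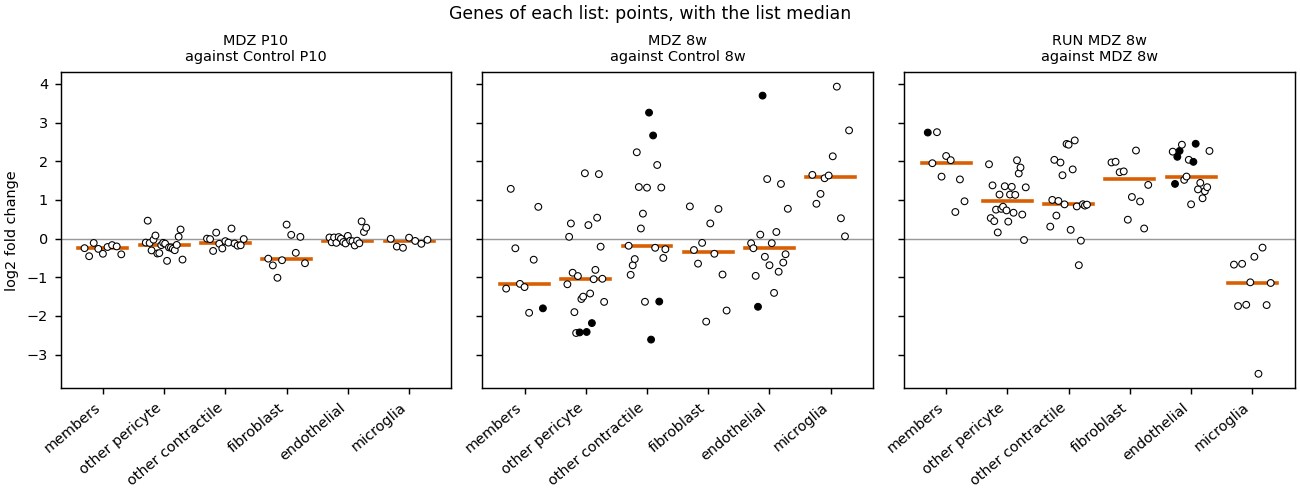
log2 fold change (y axis) of each gene of 6 lists (x axis) in the 3 comparisons named above the panels, with filled points for an adjusted p below 0.05 and a bar at each list's median. The members' median is −0.25 at P10, −1.17 in MDZ 8w against Control 8w and 1.95 in RUN MDZ 8w against MDZ 8w, where endothelial and fibroblast genes lie above 0 as well and microglia genes lie below it.

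Set against unexposed controls, running exposed cells had more Acta2, the only member that passed the test. Vtn was lower without passing, and the channel genes and Pdgfrb overlapped. Acta2 had 129, 149 and 216 TPM in RUN MDZ 8w and 76.4, 43.9 and 44.6 TPM in Control 8w, and rose (log2 fold change 1.45 ± 0.35, adjusted p = 0.0361). In this comparison 11.3% of genes were called (9.41% as higher), and Acta2 was the only one of the 9 members. Groups did not overlap with RUN MDZ 8w higher for 24.4% of genes and for 2 members, Acta2 and Tagln. The Acta2 call was lost without any 1 of the 3 RUN MDZ 8w or the 3 MDZ 8w libraries (adjusted p from 0.0539 to 0.0963) and the adjusted p was 0.00616 (log2 fold change 1.84) against the 1 averaged control sample left without Control 8w replicate 1. It was also lost under quantile normalization (0.0625), library quality weights (0.512) and a fit of the compared groups alone (0.132).

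Vtn was the 1 member lower in every RUN MDZ 8w library than in every control, at 1133, 1233 and 1436 TPM in RUN MDZ 8w and 2480.2, 1939 and 2152 TPM in Control 8w. Its log2 fold change of −0.84 ± 0.32 did not pass (adjusted p = 0.139, or 0.0389 without MDZ 8w replicate 1), and 10.6% of genes were lower without overlap. Log2 fold changes of the rest were 3.24 for Tagln (adjusted p = 0.091), 2.50 for Myh11 (0.249), 2.35 for Anpep (0.228), 0.88 for Rgs5 (0.274), 0.43 for Pdgfrb (0.616), 0.14 for Kcnj8 (0.869) and 0.11 for Abcc9 (0.905). The 95% interval for Abcc9 ran from −1.06 to 1.28, so equal levels were not shown. Without Control 8w replicate 1 the control arm was 1 averaged sample. Log2 fold changes against it were 5.30 for Tagln, 4.96 for Myh11, 4.63 for Anpep and 1.39 for Pdgfrb. In that sample Tagln, Myh11 and Anpep were at or near 0, values that may be failed estimates. Myh11 and Anpep thus entered that fit through the exposed groups alone.

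Several other contractile genes were listed at 0 in all 3 Control 8w libraries and entered the test through the exposed groups alone, so no count of the list is given as a result. Map3k7cl had 30.01, 38.3 and 40.2 TPM in RUN MDZ 8w and was listed at 0 in all Control 8w libraries, and Pln, the regulator of the muscle calcium pump, had 9.50, 8.05 and 24.4 TPM against values listed at 0. Lmod1, an actin filament nucleator of smooth muscle, had 6.05, 6.63 and 16.9 TPM and was also listed at 0 in the controls. Of 22 other pericyte markers 0 rose and 1 fell (Art3, −1.97, adjusted p = 0.0264). Markers of other cell types differed as well, and their part in the members' values was not tested. Of 8 astrocyte markers 7 rose and of 8 neuroblast markers 4 fell. Tie1 of the endothelial list and Mobp and Opalin of the oligodendrocyte list were at or near 0 in Control 8w. They also entered the test through the exposed groups alone, so no count of these lists is given as a result. Endothelial markers summed to 1972 to 2787 TPM in RUN MDZ 8w and 1044 to 1195 TPM in Control 8w. Mature oligodendrocyte markers summed to 2613 to 3931 TPM in RUN MDZ 8w and 285 to 441 TPM in Control 8w, where Mobp and Opalin were listed at 0. Astrocyte markers summed to 3889.97 to 4583 TPM in RUN MDZ 8w and 1684 to 2056 TPM in Control 8w. This comparison and the one of MDZ 8w share the Control 8w libraries, and that of RUN MDZ 8w and MDZ 8w shares the exposed ones, so the 3 sets of values are not independent.

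The balance between the members differed among the 8-week groups, shown as a description with no test. The mean log2(TPM + 1) of the 3 contractile members minus that of the 6 pericyte members was −1.06, −1.35 and −0.53 in RUN MDZ 8w, −1.23, −2.51 and −2.16 in MDZ 8w and −2.07, −3.68 and −3.63 in Control 8w. Each running library except replicate 2 lay above all MDZ 8w libraries, and the lowest control values came from replicates 2 and 3, where Tagln, Myh11 and Anpep were at or near 0. At P10 the same difference ran from −1.24 to −0.94 in MDZ P10 and from −1.21 to −1.04 in Control P10, which overlap. The ratio of Acta2 to Kcnj8, a pair that was above 0 in every sorted library, was 2.27, 1.96 and 3.43 in RUN MDZ 8w, 1.12, 0.442 and 0.402 in MDZ 8w and 0.910, 1.13 and 1.05 in Control 8w.

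As a share of the members' summed values, described with no test, Vtn made up 43.3% to 53.4% in RUN MDZ 8w, 60.6% to 73.5% in MDZ 8w and 68.4% to 82.6% in Control 8w. The running range lay below both others, which overlap. At P10 it made up 24.7% to 26.6% in MDZ P10 and 25.3% to 27.5% in Control P10. In each P10 library Rgs5 was the highest member, and in each 8-week library Vtn was.

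**Figure D4:**
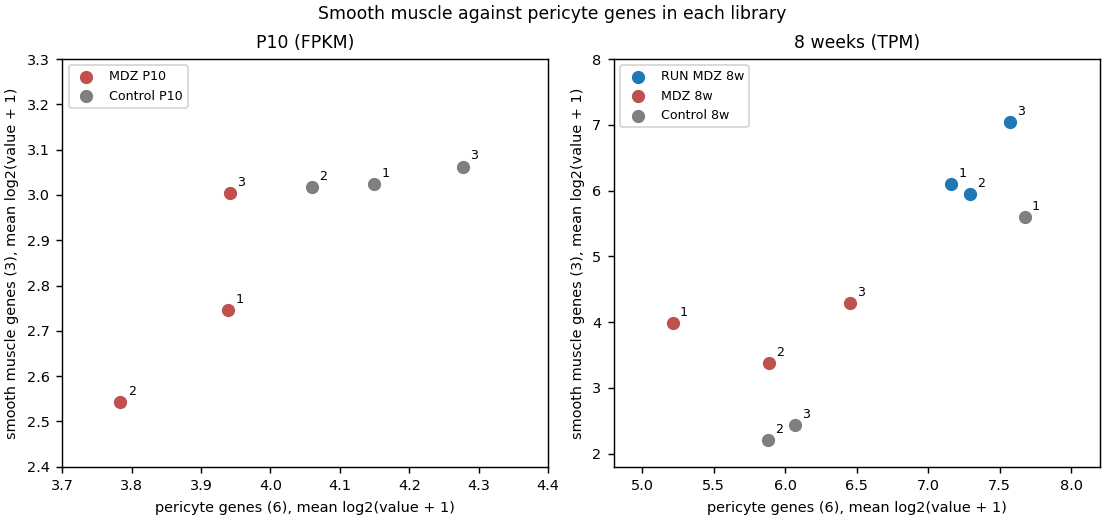
Mean log2(value + 1) of the 3 contractile members (y axis) against that of the 6 pericyte members (x axis), 1 point per library with its replicate number, for P10 (FPKM) and 8 weeks (TPM). RUN MDZ 8w lies at the upper right, MDZ 8w lies below and to the left of it, and Control 8w replicate 1 lies far from replicates 2 and 3. The axes do not start at 0.

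The genes outside the members whose pattern was nearest to the members' mean log2 level were Tns1, Col4a2, Rcsd1, Mylk and Heyl, among 12841 genes and over 14 sorted samples. Likeness was the mean absolute difference after centring each gene within its age, which was 0.172 for Tns1, 0.191 for Col4a2, 0.198 for Rcsd1, 0.199 for Mylk and 0.211 for Heyl, against a median of 0.667 over all genes. Tns1 (tensin, a link between integrins and actin) had 44.1, 41.1 and 72.4 TPM in RUN MDZ 8w, 16.5, 15.9 and 25.3 TPM in MDZ 8w and 47.7, 9.18 and 8.77 TPM in Control 8w. The same measure for the members themselves was lowest for Pdgfrb (0.169) and Rgs5 (0.212) and highest for Myh11 (0.513), Tagln (0.479) and Vtn (0.440). Each member is part of the mean it was set against, so these values cannot be compared with those of outside genes.

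In cultured neural stem cells the transduced gene was read first: Egr1, a zinc finger transcription factor, had 1769, 1390.3 and 1291 TPM in Egr1 culture and 361, 285 and 344 TPM in Control culture. Acta2 rose with Egr1, Anpep was higher in each Egr1 library and Tagln overlapped between the groups, while the other 6 members were below the filter of a mean of 1 TPM. In this comparison 44.2% of 12402 genes were called (15.2% as higher). Acta2 was called, and it was among the 18.4% of genes that were higher in Egr1 culture without overlap. Anpep entered the test only through its level in Egr1 culture, so its call is not counted as a result.

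Acta2 had 19.1, 17.97 and 11.96 TPM in Egr1 culture against 2.86, 2.57 and 3.19 TPM in Control culture. The lowest Egr1 library was well above the highest control library. The log2 fold change was 2.14 ± 0.17 (SE, limma adjusted p = 2.2e-05), with a ratio of means of 5.68. Anpep had 3.32, 2.12 and 1.75 TPM in Egr1 culture against 0.147, 0.114 and 0.398 TPM in Control culture (log2 fold change 1.46 ± 0.20, adjusted p = 0.000525). Without Egr1 culture replicate 1 its mean fell below the filter and it was not tested.

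Tagln did not follow Acta2, with 2.71, 2.64 and 1.697 TPM in Egr1 culture and 2.02, 2.26 and 2.84 TPM in Control culture (log2 fold change −0.02, 95% interval −0.40 to 0.37, adjusted p = 0.944). Its sign turned under several other settings. The ratio of Tagln to Acta2 was 0.142 to 0.147 in Egr1 culture and 0.706 to 0.891 in Control culture. Myh11 had 0.144 to 0.331 TPM in Egr1 culture and 0.297 to 0.441 TPM in Control culture. Rgs5 had at most 0.223 TPM in Egr1 culture and 0.399 TPM in Control culture, and Pdgfrb, Abcc9 and Kcnj8 at most 0.120 TPM in any library. Vtn was listed at 0 in all 6.

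Reads of Acta2 can be hard to separate from those of other actins, whose coding sequences are nearly identical. Actg2, the enteric smooth muscle actin, had 10.8, 7.09 and 6.73 TPM in Egr1 culture and was listed at 0, 0 and 0.115 TPM in Control culture, and entered the test through Egr1 culture alone (log2 fold change 3.13, adjusted p = 4.12e-06). Skeletal Acta1 had 5.54 to 6.21 TPM in Egr1 culture and 5.72 to 7.06 TPM in Control culture, and Actb had 1271 to 1475 TPM and 1524 to 1571 TPM. Stambpl1, the neighbour of Acta2, had 16.9 to 18.6 TPM in Egr1 culture and 38.9 to 40.4 TPM in Control culture, the opposite order. The part of shared reads in the Acta2 value was not tested.

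Around the members, 8 of 13 other contractile genes were called higher with Egr1 and 3 fell. Of those called higher, Actg2, Crip1 (log2 fold change 2.44) and Nrip2 entered the test through Egr1 culture alone. The count of 8 is therefore not given as a result. Actn1 (1.75), a cross-linker of actin filaments, had 61.7 to 76.8 TPM in Egr1 culture against 18.5 to 21.2 TPM in Control culture. Of 10 other pericyte markers 3 rose and 4 fell. Mcam (CD146, an adhesion molecule also found outside pericytes) had 138, 117 and 115 TPM in Egr1 culture against 4.77, 4.04 and 3.52 TPM in Control culture (4.61, adjusted p = 3.39e-08). Higd1b, Atp13a5 and Slc6a20a were at 0 in every Egr1 library, and at most 0.223, 0 and 0.0702 TPM in Control culture, so near 0 in both groups. Among the genes for mural cell recruitment, Pdgfb had 7.67, 7.29 and 6.39 TPM in Egr1 culture against 0.563, 0.356 and 0.655 TPM in Control culture (2.41, adjusted p = 3.72e-06). Among the fibroblast markers, Dcn had 158, 123 and 154 TPM in Egr1 culture against 0.149, 0.0766 and 0.161 TPM in Control culture. Of 7 genes of the SRF and myocardin family 1 rose (Fhl2, 0.61), and Myocd was at 0 in all 6 libraries. Like Actg2, Pdgfb and Dcn entered the test through Egr1 culture alone. Tgfb1 of the recruitment list entered through Control culture alone (means of 0.524 TPM in Egr1 culture and 1.64 TPM in Control culture). No count of the recruitment and fibroblast lists is therefore given as a result.

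**Figure D5:**
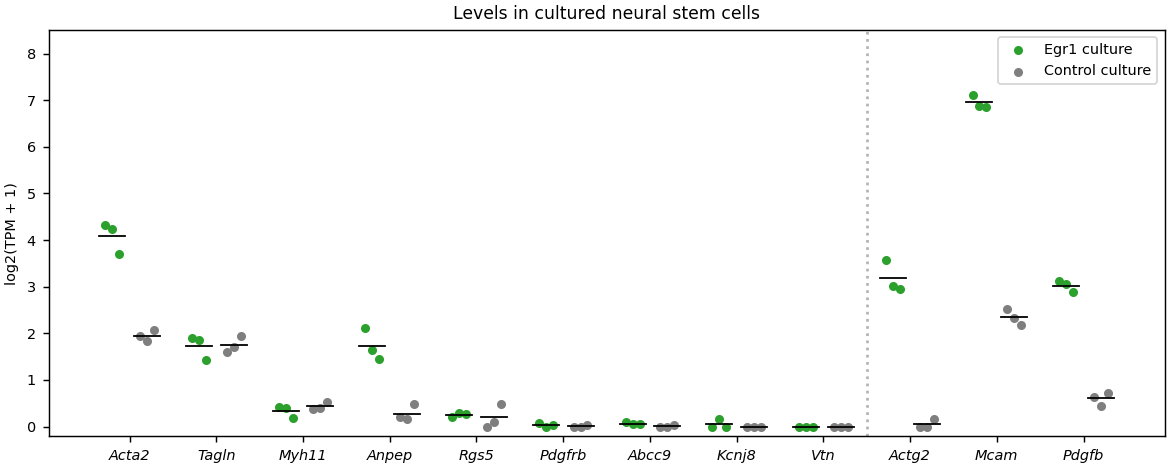
log2(TPM + 1) of the 9 members and, right of the dotted line, of Actg2, Mcam and Pdgfb in each of 3 Egr1 culture and 3 Control culture libraries, with bars at the means. Acta2 and Anpep are higher in Egr1 culture, Tagln and Myh11 overlap, and Rgs5, Pdgfrb, Abcc9, Kcnj8 and Vtn lie at or near 0 in both groups.

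In the sorted cells Egr1 itself had 1705 to 2032 TPM in RUN MDZ 8w, 1881 to 2692 TPM in MDZ 8w and 2231 to 2706 TPM in Control 8w. At P10 it had 231 to 289 FPKM in MDZ P10 against 149.7 to 187 FPKM in Control P10, without overlap.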

How the data were processed

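RNA was measured in 15 libraries of sorted cells and 6 of cultured cells. The authors deposited 1 file per library with FPKM values at P10 and TPM values at 8 weeks and in culture. These units were read from the values: TPM libraries each sum to 1000000 and P10 libraries do not. Per the submitters' processing notes the build was mm10, and TopHat, Bowtie2 and DESeq2 were named without role or version. No source used here gives the quantifier, annotation or filters. No counts were used. Relative depth, read from the steps of low values, ran from 0.571 to 1 at P10 and from 0.898 to 1 in culture, and is unknown at 8 weeks.

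Tests used limma 3.58.1 (R 4.3.3) on log2(value + 1) for genes whose mean over the libraries fitted was 1 or more, with Benjamini-Hochberg adjustment over all genes tested. Adding 1 shrinks the fold changes of genes with low values. The 3 groups at 8 weeks shared 1 fit, with Control 8w replicates 2 and 3 averaged. The script was tested on simulated data. Named genes are the 9 members, up to 4 genes of a list with the largest change past the threshold or else the 2 most abundant, and the 5 genes nearest in pattern. Genes that overlap or resemble a member, and genes of a list at 0, were named as such, and Pdgfb at 8 weeks was added after its values were seen. The members and lists were chosen with earlier results of these data known. Alternatives varied the pseudocount, the filter, the scaling, library weights, the replicate block, the groups in the fit and the libraries left out. ATAC and ChIP samples were not used here. The values of 1 listed gene are not reported here.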

Additional observations from a re-analysis of the deposited data

How the results depend on the processing

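Of 684 alternative values for single members, 628 kept their direction and their side of the threshold, 26 newly passed, 19 no longer passed and 11 changed sign. The number of members called at P10 stayed at 0 except over libraries left out in turn (0 to 1). For MDZ 8w against Control 8w it was 1, and it was 0 under quantile normalization, 0 with library quality weights, 0 with only the compared groups in the fit, 3 with Control 8w replicates 2 and 3 kept apart and 1 to 3 over libraries left out. For RUN MDZ 8w against MDZ 8w it was 1, and it was 6 with weights, 6 with only the compared groups and 0 to 5 over libraries left out. For RUN MDZ 8w against Control 8w it was 1, and it was 0 under quantile normalization, 0 with weights, 0 with only the compared groups, 2 with the control replicates kept apart and 0 to 5 over libraries left out. In culture it was 2, with Anpep entering through Egr1 culture alone, and it was 1 with a filter at a mean of 5 and 1 to 2 over libraries left out, since Anpep then left the genes tested. The count of all genes called moved with the settings as well. With library quality weights it went from 783 to 19 in MDZ 8w against Control 8w. In RUN MDZ 8w against MDZ 8w it went from 24 to 432 with these weights. A changed member count is therefore not read as a result about the members. Replicate numbers did not pair the libraries: same-number correlations at P10 were −0.0771, 0.12 and 0.106. With the replicate block, 0 members passed at P10, 1 in MDZ 8w against Control 8w, 0 in the comparison with running (Acta2 adjusted p = 0.0543), 2 in RUN MDZ 8w against Control 8w and 2 in culture.

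The sign of Myh11 in MDZ 8w against Control 8w (−0.25) changed to 1.06 with a pseudocount of 0.1, to 0.57 with the control replicates kept apart (with or without the block) and to 0.21 and 2.21 without MDZ 8w replicate 2 and Control 8w replicate 1 (−0.52 to 2.21 over libraries left out). Anpep there (0.82) changed to −0.76 under quantile normalization, which moved the median of all genes to −0.06. Tagln in culture (−0.02) changed to 0.0062 under quantile normalization, 0.0588 under median-of-ratios scaling, 0.097 with weights, and 0.13 and 0.08 without Egr1 culture and Control culture replicate 3 (−0.0992 to 0.13 over libraries left out). The causes were not tested. Genes called ranged from 0 to 101 at P10, 19 to 2928 in MDZ 8w against Control 8w, 0 to 432 in RUN MDZ 8w against MDZ 8w, 0 to 3952 in RUN MDZ 8w against Control 8w and 4383 to 6077 in culture. With no counts at 8 weeks, no limit for values listed at 0 could be set.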
